A study of Mus musculus with 6 samples.

Results

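The lysosomal cathepsins described here are the 10 genes *Ctsa*, *Ctsb*, *Ctsc*, *Ctsd*, *Ctsf*, *Ctsh*, *Ctsk*, *Ctsl*, *Ctss* and *Ctsz*, measured in mouse esophageal and stomach organoids. Members were all non-control probes whose gene name in the array files is 1 of these 10, which gave 13 of 55681 probes and 10 of 34298 gene names. The rule used names only and no measured value, although the list of genes was chosen with earlier results of these data known. *Ctsa*, *Ctsc* and *Ctsd* have 2 probes each and the other 7 genes have 1.

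Cathepsins are proteases of the lysosome, the acidic compartment in which cells break down proteins taken up from outside or delivered from inside. They are made as inactive precursors, are tagged with mannose 6-phosphate, are carried to the lysosome by sorting receptors and are activated there by cleavage, and cystatins and stefins block those that use a cysteine in the active site. In stratified squamous epithelium, cathepsins and their inhibitors take part in the terminal differentiation of keratinocytes, and in the stomach a related aspartic protease, cathepsin E, is abundant in surface mucous cells.

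By the labels, organoids of both tissues came from mice numbered 1, 2 and 4, and each organoid sample was hybridized to 1 single-color Agilent mouse gene expression array, so that each tissue had 3 arrays. All samples were untreated controls at passage 0, harvested on day 8, or on day 7 for the stomach organoids of mouse 4. The strain and age of these animals are not in the labels, and the methods name wild-type C57BL/6 females without tying them to arrays. Esophageal tissue was minced and dissociated to cells with collagenase and TrypLE, whereas stomach glands of the corpus were released with DTT and EDTA. The esophagus medium contained EGF, noggin, FGF-10, N-acetylcysteine, nicotinamide, an inhibitor of the TGF-β receptor kinase, a ROCK inhibitor and forskolin. The stomach medium contained WNT3A and R-spondin1 conditioned medium and gastrin in addition and is listed without forskolin. Tissue, medium and isolation therefore cannot be told apart in any difference below. In bulk samples, fewer cells of a type and less RNA per cell cannot be told apart either.

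Of the marker lists for each tissue, all 10 columnar genes were higher in stomach organoids, compared with 7.7% of all genes. Of 6 squamous genes, 5 were higher in esophageal organoids, compared with 7.15% of all genes. The exception was *Trp63* as read by the probe whose mean across both tissues was highest, whereas its other 3 probes were higher in the esophagus. Of 10 immune markers, 3 were higher in the stomach (*Cd14*, *Itgam* on 1 of its 3 probes, the others being at background, and the dim *Aif1*, which was not called with the mouse as a block), and the summed intensity of the list was 10800 to 19300 in the stomach and 2250 to 3260 in the esophagus. That sum rests mostly on the called *Itgam* probe, the brightest of the list on every array. Its log2 values were 13.24, 13.83 and 12.96 in stomach organoids of mice 1, 2 and 4, against 11.18, 10.47 and 10.51 in esophageal organoids. *Ptprc*, *Adgre1* and *Tyrobp*, which mark leukocytes and macrophages, were well above background on no array. *Csf1r* on 1 of its 3 probes and *Cd3e*, for a macrophage growth factor receptor and a T cell receptor subunit, were well above background on all 6 arrays and not called, with means of 7.94 and 7.39 in the esophagus and 8.12 and 7.89 in the stomach. *Cd68*, a lysosomal gene of macrophages named here after its value was seen, had means of 13.17 in esophageal and 11.54 in stomach organoids. It was not called (limma adjusted p = 0.211, and 0.0498 without esophagus replicate 4 but up to 0.461 in other settings). Its highest value, 14.77, was in the esophagus of mouse 1, and in mouse 4 the log2 difference (esophagus minus stomach) was -0.56. With each array left out in turn, the log2 difference over the arrays ran from 0.83 to 2.32. These values are of the brighter *Cd68* probe. On the dimmer one, also well above background on all 6 arrays, the esophagus lay above the stomach without overlap. Its difference of 1.41 was not called (limma adjusted p = 0.163), with 3.02, 1.06 and 0.14 in mice 1, 2 and 4. Of 8 fibroblast and 4 endothelial markers, 0 were called, where 14.9% of all genes were called in either direction. Their summed intensities were 227 to 338 and 458 to 664 in the esophagus and 258 to 272 and 517 to 551 in the stomach. The part of other cell types in the cathepsin differences was not tested.

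Each probe on the array is a 60-base oligonucleotide, and the probe decides which transcript a cathepsin value refers to. The array files give its coordinates on mouse build mm9, and exon and UTR boundaries on that build were not analysed here. A stretch of 30 bases is shown for the probes on which the results turn, with a polyadenylation signal (AATAAA or ATTAAA) in capitals.
*Ctsa*, brighter probe, chr2:164665023-164665082, plus strand: actaattctggaATTAAAtcgggtatagct
*Ctsa*, dimmer probe, chr2:164666433-164666492, plus strand: gcggctaggtaaataagtatggttttatct
*Ctsc*, brighter probe, chr7:95458436-95458495, plus strand: cgggtctttatcactcacagagtgatttag
*Ctsc*, dimmer probe, chr7:95435428-95435487, plus strand: ttgttcatgcagctgggaactgtgggaatg
*Ctsd*, brighter probe, chr7:149561962-149562021, minus strand: gaaggagcaagaggacagaagcaaaactat
*Ctsd*, dimmer probe, chr7:149566847-149568505, minus strand: actgtatcggttccatgtaagtctgaccag
*Ctsz*, only probe, chr2:174253228-174253287, minus strand: acagtgcttgtggacatgaggaccagagtg
The brighter *Ctsa* probe and the *Ctsb* probe hold such a signal, which is 2 of 13 cathepsin probes (15.4%) and compares with 13.7% of all probes on the array. The dimmer *Ctsa* probe lies 1410 bases downstream of the brighter one. The interval of the dimmer *Ctsd* probe is far longer than the probe itself, so that it spans an intron. The brighter *Ctsc* probe is listed under NM_009982 and the dimmer one under NM_001311790, a second transcript of the gene.

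Of 13 probes, 2 had higher levels in esophageal organoids and 2 in stomach organoids at adjusted p under 0.05 (limma, Benjamini-Hochberg over all 55681 probes), which is 30.8% of the cathepsin probes. Over the whole array 12.2% of probes were called, namely 5.94% for the esophagus and 6.22% for the stomach. These 4 probes belong to 4 different genes. By the brightest probe of each gene, 1 gene was called for the esophagus and 2 for the stomach, compared with 7.15% and 7.7% of all genes. The 3 values of one tissue lay entirely above those of the other for 6 probes (46.2%), 2 with the esophagus above and 4 with the stomach above, compared with 28.6% of all probes (15.2% and 13.4% by direction). The 4 include *Ctss*, which was at background throughout, and *Ctsb*, whose tissues nearly touched. The median difference of the cathepsin probes was -0.19 on the log2 scale (esophagus minus stomach, the direction of every difference given here), and that of all probes was 0.02. Transcripts were readily detected: 12 of 13 probes were well above background on all 6 arrays, and the *Ctss* probe on none. With the mouse as a block 3 probes were called, all higher in the stomach, against 11.1% of all probes (5.36% for the esophagus and 5.69% for the stomach). With the scanner software's processed signal scaled to each array's 75th percentile in place of the quantile normalized table (the scaled processed signal below, which changes both the signal and the scaling), the median of all probes was 0.19 and that of the cathepsin probes 0.08, and 1 cathepsin probe (the brighter one of *Ctsd*, for the esophagus) was called, against 10.9% of all probes.

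**Figure D1:**
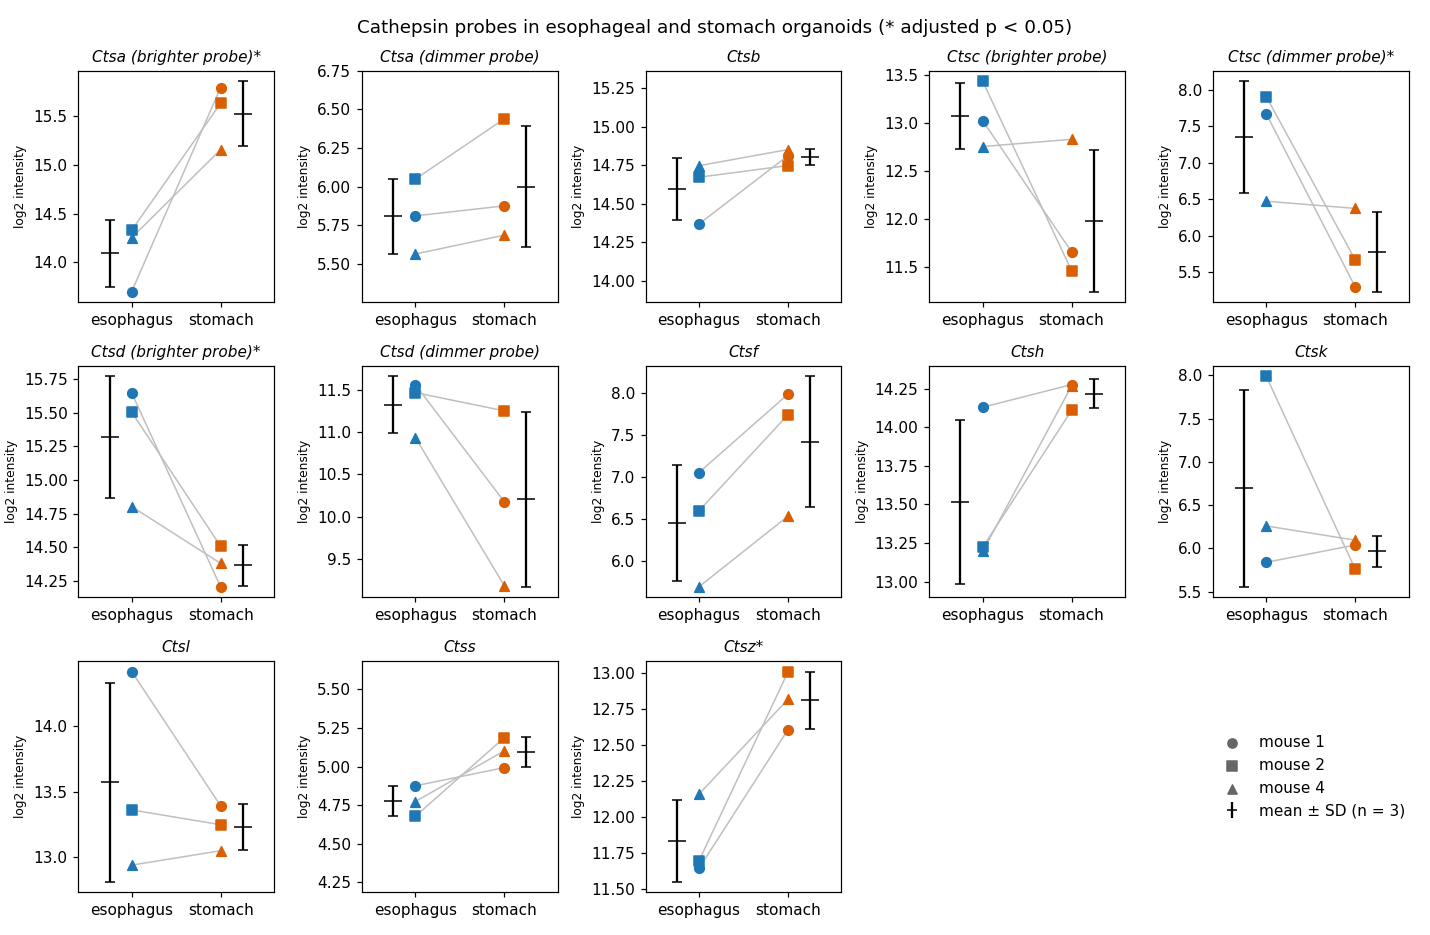
Log2 intensity (vertical axis) of each cathepsin probe in esophageal (blue) and stomach (orange) organoids, with lines joining the 2 samples of a mouse and black bars giving mean and SD of 3 arrays beside the points; vertical scales differ between panels. The brighter *Ctsa* probe and *Ctsz* sit higher in the stomach in every mouse, the brighter *Ctsd* probe sits higher in the esophagus in every mouse, and both *Ctsc* probes are nearly level in mouse 4.

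*Ctsa* encodes cathepsin A, also called protective protein, a serine carboxypeptidase that holds β-galactosidase and neuraminidase in a stable complex within the lysosome. Its brighter probe (NM_001038492) had log2 intensities of 13.70, 14.33 and 14.25 in the esophagus of mice 1, 2 and 4 and of 15.80, 15.63 and 15.16 in their stomach. Each stomach value was above each esophagus value. The difference was -1.44 (SE 0.24, 95% interval -1.99 to -0.88, limma adjusted p = 0.00629), which is 2.71-fold higher in the stomach. It kept its call with any array left out and with the mouse as a block (adjusted p = 0.021), and was -1.13 (adjusted p = 0.0966) with the scaled processed signal.

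The dimmer *Ctsa* probe (NM_008906) had 5.81, 6.05 and 5.56 in the esophagus and 5.87, 6.44 and 5.68 in the stomach. The tissues overlapped, and the difference of -0.19 (95% interval -0.73 to 0.35, limma adjusted p = 0.703) was not called. The call of the gene thus belongs to the brighter probe. The probe farther downstream was dim in both tissues. Whether the ATTAAA in the brighter probe is used as a polyadenylation signal was not tested.

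*Ctsz* encodes cathepsin Z, also called cathepsin X, a cysteine carboxypeptidase. Its log2 intensities were 11.64, 11.70 and 12.16 in the esophagus and 12.61, 13.01 and 12.82 in the stomach of mice 1, 2 and 4. The stomach was higher in all 3 mice and the tissues did not overlap. The difference was -0.98 (SE 0.19, limma adjusted p = 0.0149), a 1.97-fold higher level in the stomach. The call was lost without esophagus replicate 2 (adjusted p = 0.058), without stomach replicate 2 (adjusted p = 0.0708) and with the scaled processed signal (-0.78, adjusted p = 0.205).

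*Ctsd* was higher in the esophagus on 1 of its 2 probes. It encodes cathepsin D, the main aspartic protease of the lysosome. The brighter probe had 15.65, 15.50 and 14.80 in the esophagus and 14.21, 14.51 and 14.38 in the stomach. All esophagus values lay above all stomach values, and the difference was 1.44 in mouse 1, 0.996 in mouse 2 and 0.42 in mouse 4. Over the arrays it was 0.95 (SE 0.24, limma adjusted p = 0.0384), or 1.93-fold. The dimmer probe had 11.56, 11.47 and 10.94 in the esophagus and 10.18, 11.25 and 9.18 in the stomach. Here the tissues overlapped and the difference of 1.12 was not called (SE 0.47, 95% interval 0.02 to 2.21, limma adjusted p = 0.2), although the esophagus value was above the stomach value in each mouse. Without stomach replicate 2 it was 1.64 and was called (adjusted p = 0.0393), and without stomach replicate 4 it was 0.61 (adjusted p = 0.368). The call of the brighter probe was lost with the mouse as a block (adjusted p = 0.0568), with normexp on mean intensities at an offset of 50 (adjusted p = 0.0715) and without any single array except esophagus replicate 4 (adjusted p = 0.0742 to 0.152 for the other 5).

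*Ctsc* encodes cathepsin C, or dipeptidyl peptidase I, which activates serine proteases of immune cells by removing dipeptides. The brighter probe had 13.03, 13.44 and 12.76 in the esophagus and 11.66, 11.46 and 12.83 in the stomach. The stomach of mouse 4 was the only stomach sample within the range of the esophagus, and the difference of 1.09 (95% interval 0.24 to 1.93, limma adjusted p = 0.107) was not called. Without that sample it was 1.51 and was called (adjusted p = 0.0066). The dimmer probe had 7.67, 7.91 and 6.47 in the esophagus and 5.30, 5.67 and 6.37 in the stomach. The esophagus lay above the stomach throughout, and the difference of 1.57 (SE 0.41, limma adjusted p = 0.048) is a 2.97-fold higher level.

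On both *Ctsc* probes the difference came from mice 1 and 2, with 1.36 and 1.97 on the brighter and 2.37 and 2.24 on the dimmer probe. In mouse 4 it was -0.08 and 0.10. The stomach organoids of that mouse were harvested 1 day before the others, and its esophagus array was the only one on the second slide; the part of either in this pattern was not tested. The call of the dimmer probe was lost with the mouse as a block (adjusted p = 0.0964), with the scaled processed signal (adjusted p = 0.071), with normexp on mean intensities (adjusted p = 0.0568 and 0.114 with offsets of 16 and 50) and without any of the arrays of mice 1 and 2 (adjusted p = 0.114 to 0.18).

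**Figure D2:**
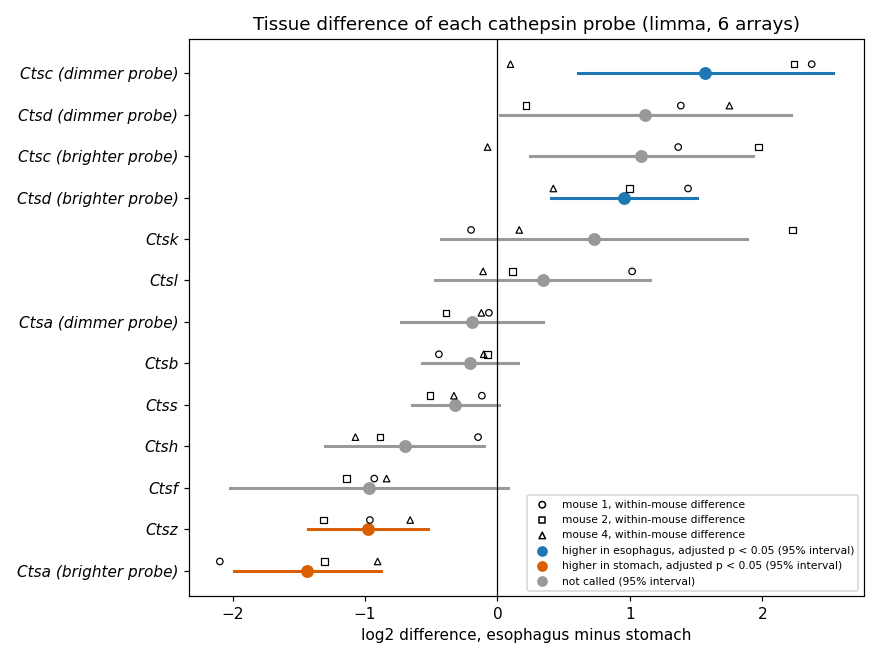
Log2 difference between esophagus and stomach (horizontal axis) for each cathepsin probe, as limma estimates with 95% intervals (filled circles and bars) and as the difference within each mouse (open symbols). Intervals of the 2 probes called for each tissue exclude 0, as do those of 3 probes that were not called (the brighter *Ctsc*, the dimmer *Ctsd* and *Ctsh*), and the differences of *Ctsf* within mice lie close together although its interval is wide.

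*Ctsf*, which encodes cathepsin F, had 7.05, 6.60 and 5.69 in the esophagus and 7.98, 7.74 and 6.53 in the stomach of mice 1, 2 and 4. Mouse 4 had the lowest value in both tissues, so the tissues overlapped and the difference of -0.97 was not called (SE 0.45, limma adjusted p = 0.249). Within each mouse the stomach was nevertheless higher, by nearly the same step, with differences of -0.93, -1.14 and -0.84. With the mouse as a block the SE was 0.16 and the probe was called (limma adjusted p = 0.0166). That block rests on the mouse numbers of the labels alone, since over all probes the arrays gave no sign of pairing.

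*Ctsh* encodes cathepsin H, an aminopeptidase. It had 14.13, 13.22 and 13.20 in the esophagus and 14.28, 14.11 and 14.27 in the stomach. The esophagus of mouse 1 was at the level of the stomach, and the difference of -0.70 (95% interval -1.31 to -0.10, limma adjusted p = 0.144) was not called. Without esophagus replicate 1 it was -1.01 and was called (adjusted p = 0.00754).

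*Ctsl* encodes cathepsin L, an endopeptidase with known roles in epidermis and hair follicle. It had 14.41, 13.36 and 12.94 in the esophagus and 13.39, 13.25 and 13.05 in the stomach, and the esophagus of mouse 1 stood above the other 5 samples. The difference of 0.34 (95% interval -0.47 to 1.15, limma adjusted p = 0.643) was not called and turned to -0.08 without that sample.

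*Ctsb* encodes cathepsin B and was bright and even across all samples. Its values were 14.37, 14.67 and 14.75 in the esophagus and 14.81, 14.75 and 14.85 in the stomach. The stomach lay just above the esophagus, by a difference of -0.21 (95% interval -0.57 to 0.15, limma adjusted p = 0.503). The sign turned to 0.08 with the scaled processed signal.

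*Ctsk*, encoding the cathepsin K of osteoclasts, was dim except for 1 sample. It had 5.84, 7.99 and 6.26 in the esophagus and 6.04, 5.76 and 6.09 in the stomach. Only the esophagus of mouse 2 stood apart, and the difference was 0.73 (95% interval -0.43 to 1.89, limma adjusted p = 0.451), or 0.08 without it. *Ctss*, encoding the cathepsin S of antigen-presenting cells, stayed at background on all 6 arrays, with means of 4.78 ± 0.10 (SD, n = 3) in the esophagus and 5.09 ± 0.10 (SD, n = 3) in the stomach, so no fold is given.

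**Figure D3:**
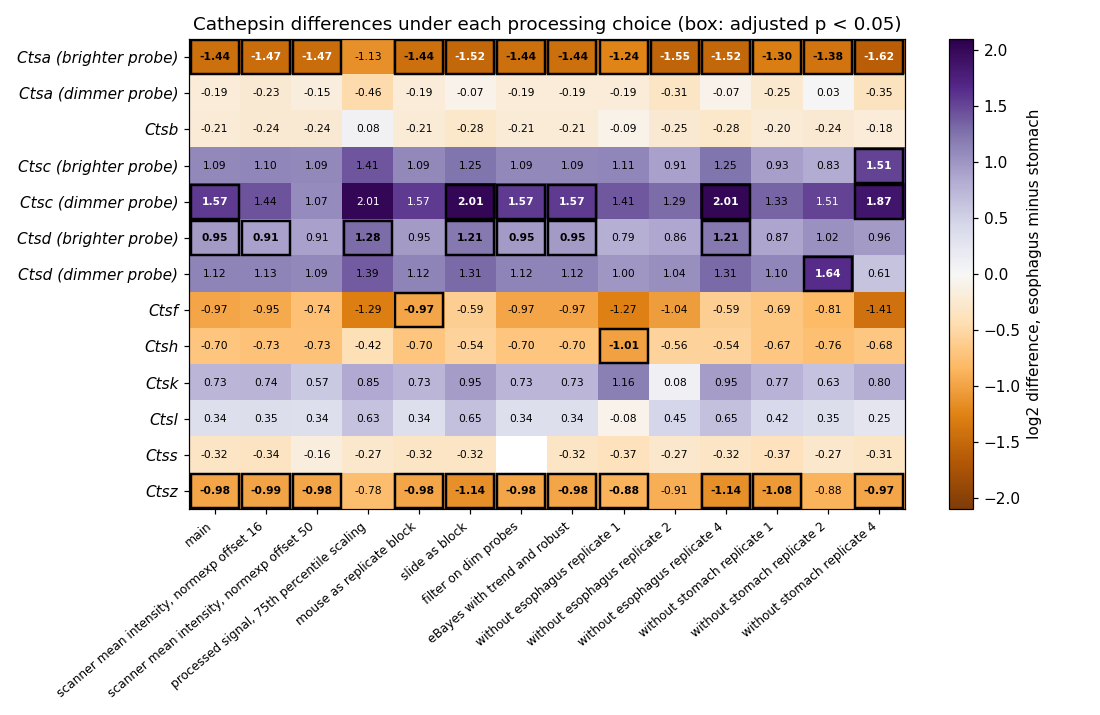
Log2 difference (esophagus minus stomach, color and number) of each cathepsin probe in rows under each processing choice in columns, with a box where adjusted p was under 0.05. The brighter *Ctsa* probe is boxed in all columns but that of the processed signal with 75th percentile scaling, whereas the *Ctsc* and *Ctsd* calls for the esophagus are lost in several columns.

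By the pattern over the 6 arrays, the transcripts most like the brighter *Ctsa* probe, among 6055 probes that were well above background on all arrays and differed by at least a set part of its log2 difference, were *Slc2a8* (Pearson's r = 0.9989, difference -1.18), which encodes a glucose transporter of intracellular membranes, an unnamed probe (A_55_P2096127), *Peg13*, *Fam3c* and *Pi4k2b* (r = 0.9955). Those most like the dimmer *Ctsc* probe, among 5347 probes, were a probe for an interval on chromosome 10, *Plpp1*, *Il34* (difference 1.98), *Nkain1* and *Sertad2*, with r of 0.988 to 0.9929. All points share the same 6 arrays and their split into tissues, so these values are a description.

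Among 12 other cathepsin genes on the array, *Ctse* was the only one called, where 14.9% of all genes were called. It encodes cathepsin E, a non-lysosomal aspartic protease of the gastric mucosa, and had 15.23, 14.53 and 14.68 in the stomach of mice 1, 2 and 4. No esophagus array had it well above background (4.92, 4.85 and 4.85), which puts the stomach at least 903-fold higher on the deposited scale (limma adjusted p = 1.11e-07). The fitted log2 difference, which is not a bound, moved with the processing. It was -8.83 with normexp on mean intensities at an offset of 50 and -12.76 with the scaled processed signal. Of the other 11 genes, 8 were well above background on no array, including the placental cathepsins *Cts3*, *Cts6*, *Cts7*, *Cts8*, *Ctsm*, *Ctsq* and *Ctsr* and the neutrophil protease *Ctsg*. *Ctso* had a difference of -0.75 (adjusted p = 0.0908). *Ctsw* was at background on all 3 stomach arrays and was not called (adjusted p = 0.0707), except with the scaled processed signal (adjusted p = 0.0407).

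The endogenous inhibitors included genes that were well above background on esophagus arrays alone. The list of 18 genes holds cystatins and stefins and also *Kng1*, *Kng2* and *Fetub*, which were not called. Of these 18, 6 were called for the esophagus and 1 for the stomach, compared with 7.15% and 7.7% of all genes (14.9% in either direction). Each gene was represented by its brightest probe (that whose mean across both tissues is highest). *Cstb*, encoding the cytosolic inhibitor stefin B, had 15.21, 14.69 and 15.11 in the esophagus and 12.34, 12.38 and 12.42 in the stomach, a 6.16-fold higher level in the esophagus (difference 2.62, SE 0.17, limma adjusted p = 4.66e-05). *BC100530*, a gene of the stefin A family, had 13.81, 14.85 and 14.48 in the esophagus. It was at background on all 3 stomach arrays, and its esophageal level was 665-fold higher by the fitted value (limma adjusted p = 4.36e-07). Lower bounds for *Stfa3* and *Stfa2l1* were 128-fold and 5.18-fold. These 3 folds hold on the deposited scale. The fitted log2 differences of *BC100530*, *Stfa3* and *Stfa2l1*, which are not bounds, were 8.23, 5.78 and 1.65 with normexp at an offset of 50. With the scaled processed signal they were 12.38, 10.22 and 4.99.

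*Stfa1*, at background on all stomach arrays, had an esophageal level at least 2.21-fold higher by 1 of its 2 probes (limma adjusted p = 0.0338), while *Stfa2* was not called (-0.47, adjusted p = 0.571). The *Stfa1* call was lost with the mouse as a block (adjusted p = 0.0595), with normexp on mean intensities at an offset of 50 (adjusted p = 0.0695) and without any single stomach array (adjusted p = 0.0656 to 0.135). Over the alternative settings its fitted log2 difference ran from 0.80, at that offset, to 3.61, so the bound depends on the setting. Mouse stefin A genes are near-identical copies, and their probes may not tell them apart. *Cst6*, encoding cystatin M/E of cornifying epithelium, had 10.65 ± 1.17 (SD, n = 3) in the esophagus and 5.19 ± 0.38 (SD, n = 3) in the stomach, where 1 of 3 arrays was well above background (difference 5.46, SE 0.53, limma adjusted p = 0.000383). Its stomach level is near background, and the difference ranged from 4.49 with normexp on mean intensities at an offset of 50 to 7.77 with the scaled processed signal. The secreted inhibitor cystatin C, encoded by *Cst3*, was higher in the stomach by a small step (difference -0.74, limma adjusted p = 0.0384). That call was lost with the mouse as a block (adjusted p = 0.0938), with the scaled processed signal (adjusted p = 0.543) and without any single array of mice 1 and 2 (adjusted p = 0.0968 to 0.156). The median over all 18 genes was 0.11, since 7 of them were at background on every array.

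Of 15 genes in a list of cathepsin sorting and activation genes that also holds the transcription factors *Tfeb*, *Tfe3* and *Mitf*, 2 were called for the esophagus (*Gga2* and *Mitf*) and 4 for the stomach, beside the 7.15% and 7.7% of all genes. The sorting receptor sortilin, encoded by *Sort1*, had 9.63, 9.55 and 8.29 in the esophagus and 12.69, 12.58 and 12.54 in the stomach (difference -3.45, SE 0.34, limma adjusted p = 0.000431). Its other probes were called in the same direction. The brighter of them was 4.68-fold higher (limma adjusted p = 0.000893). The dimmer, at background in the esophagus, was 1.68-fold higher by the fitted value, which is not a bound (limma adjusted p = 0.0132). The interval of its log2 difference was -1.08 to -0.41. Of the mannose 6-phosphate receptors, *Igf2r*, which encodes the cation-independent one, was higher in the stomach (difference -0.87, limma adjusted p = 0.0104, and adjusted p = 0.328 with the scaled processed signal). *M6pr*, for the cation-dependent one, was not called (difference 0.28, adjusted p = 0.416).

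*Lgmn*, encoding the asparaginyl endopeptidase legumain that cleaves cysteine cathepsins to their 2-chain forms, had a difference of -1.36 (limma adjusted p = 0.006), and *Psap*, encoding the saposin precursor that binds procathepsin D, one of -1.68 (limma adjusted p = 0.000946). The adaptor gene *Gga2*, whose protein carries the receptors from the Golgi, was higher in the esophagus (difference 1.51, limma adjusted p = 0.00453). *Gnptab* and *Gnptg*, for the enzyme that makes the mannose 6-phosphate tag, were not called (adjusted p = 0.696 and 0.587), although *Gnptg* was without esophagus replicate 1 (adjusted p = 0.045).

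The transcription factors in that list regulate the lysosomal gene program. *Tfeb* was not called (difference -0.18, limma adjusted p = 0.677), *Mitf* was dim and higher in the esophagus (difference 0.58, adjusted p = 0.0356, lost in 9 of 13 alternative settings, its other probe being well above background on 1 of 6 arrays and not called), and *Tfe3* had a difference of 1.07 on its brightest probe (adjusted p = 0.074, called in 3 of 13 alternative settings, with adjusted p = 0.00275 without esophagus replicate 1) and of 1.104 on its other probe, which was called (adjusted p = 0.0298). Their proteins bind the CLEAR element, whose core is TCACGTGA. RefSeq promoter windows on GRCm38.p6, which run from 250 bases before to 50 bases after a start, were held for 8 of the 10 genes, in 9 windows. The core was found in 2 of these 9 windows (22.2%), compared with 0.974% of 32851 windows. The shorter CACGTG, which lies inside the core, was found in 4 of 9 (44.4%), compared with 7.15%. Both motifs read the same on both strands. The 100 bases before the start are shown for these 2 windows, with the core in capitals.
*Ctsa*, chr2:164833673-164833772, plus strand: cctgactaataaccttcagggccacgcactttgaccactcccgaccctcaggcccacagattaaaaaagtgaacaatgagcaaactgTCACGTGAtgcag
*Ctsd*, chr7:142387828-142387927, minus strand: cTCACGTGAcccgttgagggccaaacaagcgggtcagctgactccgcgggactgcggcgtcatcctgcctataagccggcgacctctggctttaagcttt
The core begins 13 bases before the listed start of *Ctsa*, which has 2 windows, and 99 bases before that of *Ctsd*. The called probes of *Ctsa* and *Ctsd* differed between tissues in opposite directions (-1.44 and 0.95). The part of the motif in either difference was not tested.

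The other lysosomal hydrolases were called for the stomach alone. Their list also holds *Npc2*, *Gm2a* and *Hgsnat*, named here because their proteins are not hydrolases, which were not called at adjusted p under 0.05. Of 34 genes, 0 were called for the esophagus and 17 for the stomach (limma adjusted p under 0.05), compared with 7.15% and 7.7% of all genes, or 3 and 22 at unadjusted p under 0.05 and 1.5-fold, which 21.7% of all genes passed, with a median difference of -0.85 compared with -0.26 over the brightest probes of the 10 cathepsins and 0.03 over all genes. The count for the stomach was 10 with the scaled processed signal. *Neu1*, encoding the neuraminidase held in the complex with cathepsin A, had 10.51, 10.46 and 10.47 in the esophagus and 13.59, 13.80 and 13.76 in the stomach (difference -3.23, SE 0.14, limma adjusted p = 4.02e-06). *Glb1*, encoding the β-galactosidase of that complex and named here after its value was seen, had a difference of -1.81 (SE 0.19, limma adjusted p = 0.000652). The other hydrolases with the most different levels were *Idua* (-2.70, and -0.31 and not called on its other probe), *Hexa* (-2.28) and *Aga* (-1.91), which encode enzymes that degrade glycosaminoglycans, gangliosides and glycoproteins.

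**Figure D4:**
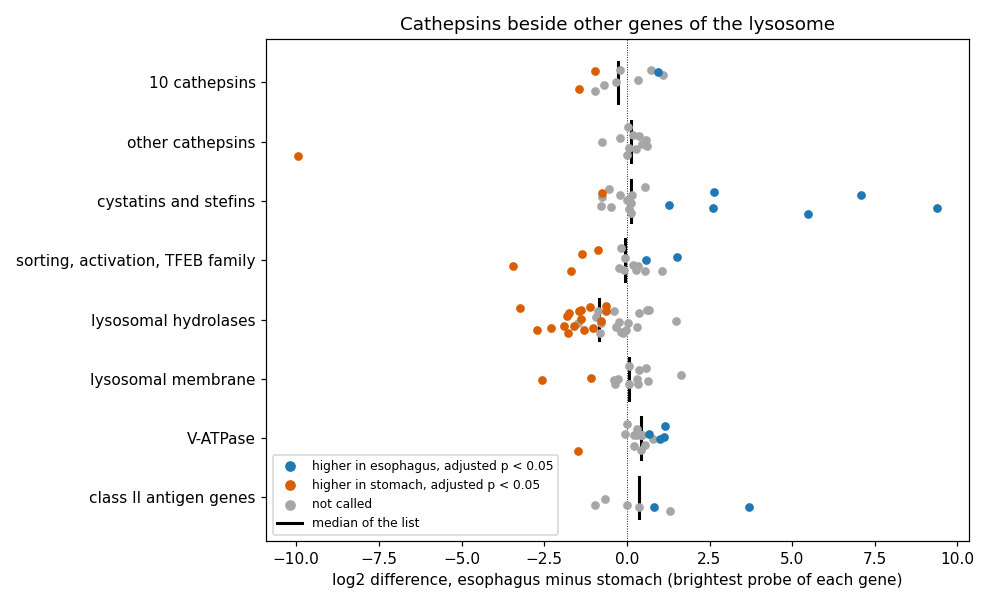
Log2 difference between esophagus and stomach (horizontal axis) of the brightest probe of each gene in 8 lists, colored by call, with the median of each list as a black bar. Cathepsins lie between -1.44 and 1.09 on both sides of 0, hydrolases are called for the stomach alone with a median of -0.85, and the 2 inhibitor genes farthest toward the esophagus (*BC100530* and *Stfa3*) are at background in the stomach, so that their points are not exact.

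Structural parts of the lysosome were measured as 2 lists. Of 13 lysosomal membrane genes, 0 were called for the esophagus (1 at unadjusted p under 0.05 and 1.5-fold, which 21.7% of all genes passed) and 2 for the stomach, compared at adjusted p under 0.05 with 7.7% of all genes for the stomach and 14.9% in either direction. These were *Slc17a5*, which encodes the sialic acid exporter (difference -2.58, limma adjusted p = 0.000556, not called on its other probe, where it was -0.54), and *Cd63*, which encodes a tetraspanin (difference -1.09, limma adjusted p = 0.0186, lost with the scaled processed signal, without esophagus replicate 2 and without stomach replicate 1 at adjusted p = 0.249, 0.0655 and 0.0735). The median of the membrane list was 0.08. Of 16 genes of the V-ATPase, the proton pump that acidifies the lysosome, 4 were called for the esophagus and 1 for the stomach, compared with 7.15% and 7.7% of all genes, with a median of 0.43. Those for the esophagus were *Atp6v1d* (difference 1.16, limma adjusted p = 0.00194), *Atp6v1a* (1.12), *Atp6v1g1* (0.998) and *Atp6v0a2* (0.68), and the one for the stomach was *Atp6v0a1* (-1.47, limma adjusted p = 0.0237). Over 13 alternative settings the call was lost in 6 for *Atp6v1a*, in 6 for *Atp6v0a1* and in 8 for *Atp6v0a2*, and in 0 for *Atp6v1d* and *Atp6v1g1*.

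Cathepsins S, L and F are known for processing the invariant chain of MHC class II molecules. Of 7 genes of that pathway, 2 were called for the esophagus and 0 for the stomach, compared with 7.15% and 7.7% of all genes. At unadjusted p under 0.05 and 1.5-fold, which 21.7% of all genes passed, 3 were called for the esophagus and 1 for the stomach. *H2-Ab1*, which encodes a class II β chain, had 12.30 ± 0.28 (SD, n = 3) in the esophagus and 8.60 ± 0.65 (SD, n = 3) in the stomach (difference 3.69, SE 0.32, limma adjusted p = 0.000213). *Ciita*, encoding the activator of class II genes, was dimmer (difference 0.80, limma adjusted p = 0.00758) and was called on 1 of its 3 probes, the others being well above background on 1 of 6 arrays each. Of the genes not called, which are named here after their values were seen, *H2-Eb1*, for another β chain, and *H2-DMa* lay higher in the esophagus without overlap (differences of 1.31 and 0.38, adjusted p = 0.068 and 0.196), *H2-Aa*, for a class II α chain, was at background on all 6 arrays, and *Cd74*, for the invariant chain, and *H2-DMb1* had differences of -0.65 and -0.98 (adjusted p = 0.344 and 0.123). *H2-Eb1* was called in 4 of 13 alternative settings, among them without esophagus replicate 2 (adjusted p = 0.0171), and *H2-DMb1* without esophagus replicate 1 (adjusted p = 0.00967). *Ctss* was at background in the same esophageal samples.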

How the data were processed

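Per the labels and methods, organoid RNA was hybridized to single-color Agilent arrays, and the authors obtained spot values with Agilent's Feature Extraction software. The version, 11.5.1.1, was read from the grid placement entry of the scanner headers. The deposited table holds log2 values that the authors background corrected and quantile normalized, and normexp with offset 15 on the median intensities gave it with a median difference of 0.00433. The deposited scanner files hold the intensity of each spot with flags and were used for background calls and alternatives. Each array had 62976 spots, of which 3671 were controls. Over the 6 arrays, 0 non-control spots were saturated and 2029 outlier-marked spots were empty in the table. The share of spots well above background was 45.5% to 51.1%, and with 3 arrays a tissue their number limits the precision.

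Log2 values were averaged per probe and compared with limma 3.58.1 in R 4.3.3 over all 55681 probes, without a block. Lower bounds set the mean of the bright tissue against the higher of the dim probe's own value and the lowest value well above background on each array. They leave out the spread between arrays. Where the dim probe's own values are the higher ones, this gives the fitted fold itself, which is then named as the fitted value. The labels give both tissues the same mouse numbers, and the block rests on these labels alone, since the arrays' deviations gave no sign of pairing. As a check, the deviations from the tissue mean were correlated between both samples of each mouse, with r of 0.025, 0.012 and -0.0079, against -0.073 to 0.04 between different mice. Every cathepsin probe is named. Genes of the inhibitor, sorting and other cathepsin lists were named freely, and of other lists up to 4 a direction with the largest called difference. The members and lists were chosen with earlier results of these data known.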

Additional observations from a re-analysis of the deposited data

How the results depend on the processing

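With the mouse as a replicate block, the count of cathepsin probes higher in the esophagus went from 2 to 0 and that higher in the stomach from 2 to 3, and genes called went from 1 to 0 for the inhibitors in the stomach and from 2 to 1 for the sorting list in the esophagus, where *Mitf* lost its call and *Gga2* did not. Over these counts the block changed no other by more than 1.5 times. With the processed signal scaled to the 75th percentile, which changes both the signal and the scaling, the cathepsin counts were 1 and 0, other cathepsins in the esophagus 1 in place of 0, inhibitors in the stomach 0, sorting in the esophagus 1, hydrolases in the stomach 10 in place of 17, membrane genes in the stomach 1 and V-ATPase in the stomach 0, and the *Ctsb* difference turned to 0.0776. Normexp on mean intensities left 1 (offset 16) or 0 (offset 50) cathepsin probes for the esophagus, and the latter gave 1 hydrolase there. With the slide as a block, which leaves out the array of esophagus mouse 4 in effect, sorting in the esophagus was 1, hydrolases 1, membrane genes 2, and V-ATPase in the stomach 0. Averaging the probes of a gene gave 1 hydrolase, 1 membrane and 1 class II gene for the esophagus. At unadjusted p under 0.05 and 1.5-fold, which 18.1% of all probes and 21.7% of all genes passed, 4 cathepsin probes were higher in the esophagus, with 3 hydrolases and 1 membrane gene, and 2 other cathepsins and 1 class II gene were higher in the stomach. The brighter *Ctsa* probe and the *Ctsz* and *Ctsh* probes passed that threshold for the stomach.

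With each array left out in turn, the cathepsin counts ran from 0 to 2 in the esophagus and from 1 to 3 in the stomach. Gene counts for the esophagus ran from 0 to 1 for other cathepsins, 1 to 3 for sorting, 0 to 1 for hydrolases, 0 to 2 for membrane genes and 2 to 3 for V-ATPase. Those for the stomach ran from 0 to 2 for inhibitors, 1 to 2 for membrane genes, 0 to 1 for V-ATPase and 0 to 1 for class II genes. The dimmer *Ctsa* probe ran from -0.35 to 0.0273 (without stomach replicate 2), and *Ctsl* from -0.0793 (without esophagus replicate 1) to 0.6543. The cause of these changes was not tested. A filter on dim probes and a trended robust variance model moved none of these counts by more than 1.5 times, and the filter leaves no value for *Ctss*. Signal at background limits what the *Ctss* probe can show.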
